A study of Mus musculus with 6 samples.

Results

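Collagen and laminin chain genes encode the subunits of the extracellular matrix that surrounds the notochord, neural tube, gut and somites of the mouse tailbud. They were taken as all autosomal genes with a collagen chain symbol (such as Col2a1) or a laminin chain symbol (such as Lama1) that had 10 or more counts in at least 3 of 6 libraries. Of 53 autosomal genes with such symbols, 47 met this rule, 36 collagens and 11 laminins, out of 37310 gene identifiers counted. The rule used no comparison between genotypes. The members closest to the limit were Col6a4, with 58 counts in all and 10 or more in 3 libraries, and Col8a1, with 137 counts and 4 libraries. Just outside it lay Col6a5 and Col6a6, with 47 counts each and 2 libraries. Col10a1, Col19a1, Col28a1 and Col4a4, with 6 to 21 counts each, also fell outside. Another 2 chain genes, Col4a5 and Col4a6, lie on chromosome X, whose genes are listed at 0 throughout, and were not counted among the 53.

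The libraries hold polyadenylated RNA of tailbuds at embryonic day 9.5, 3 from wild-type (WT/WT) and 3 from homozygous Danforth's short tail (Sd/Sd) embryos, here called WT and Sd, all on the outbred CD-1 background. Danforth's short tail is a semidominant mutation, caused by a retrotransposon inserted upstream of Ptf1a, a transcription factor gene; it truncates the tail and disturbs the notochord. Tailbuds of 2 embryos were pooled where 1 gave too little material, and which libraries were pooled is not given. The labels name no litters, and all p-values therefore reflect only how far these 6 libraries differ, which may be partly technical. Total counts ran from 41788978 to 62296689 per library, and the members took 0.367% to 0.578% of them. Ptf1a had 5, 2 and 1 counts in WT replicates 1 to 3 and 848, 864 and 959 in Sd replicates 1 to 3, the direction known for this mutation. The tailbud markers T (Brachyury) and Cdx2 were present in both groups, at 160 ± 21.1 and 133 ± 32.2 CPM in WT (SD, n = 3). In Sd replicates 1 to 3, T measured 143, 77.2 and 203 CPM and Cdx2 132, 66.9 and 188 CPM. For both genes Sd replicate 2 was the lowest of the 6 libraries and Sd replicate 3 the highest. CPM here are counts scaled by library size with trimmed-mean (TMM) factors.

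Collagen molecules are triple helices of alpha chains. Fibrillar collagens (types I, II, III, V and XI) form the fibres of loose mesenchyme, cartilage and the notochord sheath, and fibril-associated collagens decorate them. Type IV collagen and the laminins, each a trimer of an alpha, a beta and a gamma chain, polymerise into the sheets of basement membranes, and multiplexin collagens such as type XVIII sit in the same sheets. The notochord is enclosed by a laminin-rich basement membrane inside a sheath of type II collagen.

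No chain gene passed the test between genotypes. In edgeR's quasi-likelihood test with Benjamini-Hochberg adjustment over 15471 genes, 0 of 45 tested members were higher and 0 were lower in Sd at an adjusted p under 0.05, and the smallest adjusted p among them was 1.00. Of all genes tested, 0.0582% passed, 0.0388% higher and 0.0194% lower in Sd. At an unadjusted p under 0.05 there were 3 members, against 2.9% of all genes: Lama3 and Col4a2 with Sd lower (1.95% of all genes) and Col9a1 with Sd higher (0.944%). DESeq2 also called 0 members. Levels of 6 members did not overlap between groups, with Sd lower for 5 and higher for 1, where 7.68% of all genes showed no overlap. The median log2 fold change of the 45 members was -0.04, with 27 negative and 18 positive, beside a median of 0.00 (-0.00034) over all genes. Without Sd replicate 2 the median was -0.27, with 39 negative and 6 positive, where 52.5% of all genes were negative. With the replicate number as a block the median was -0.07, with 33 negative and 12 positive, where 52.1% of all genes were negative. Fewer libraries separate more readily: without Sd replicate 2, 11 members and 22.7% of all genes did not overlap, and without Sd replicate 3, 12 members and 21.1% of all genes, so that these counts lie near the background. Col4a3 and Col6a4 were too low for the test. Col4a3 had 10, 10 and 12 counts in WT and 2, 12 and 23 in Sd. Col6a4 had 23, 8 and 2 counts in WT and 0, 10 and 15 in Sd.

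**Figure D1:**
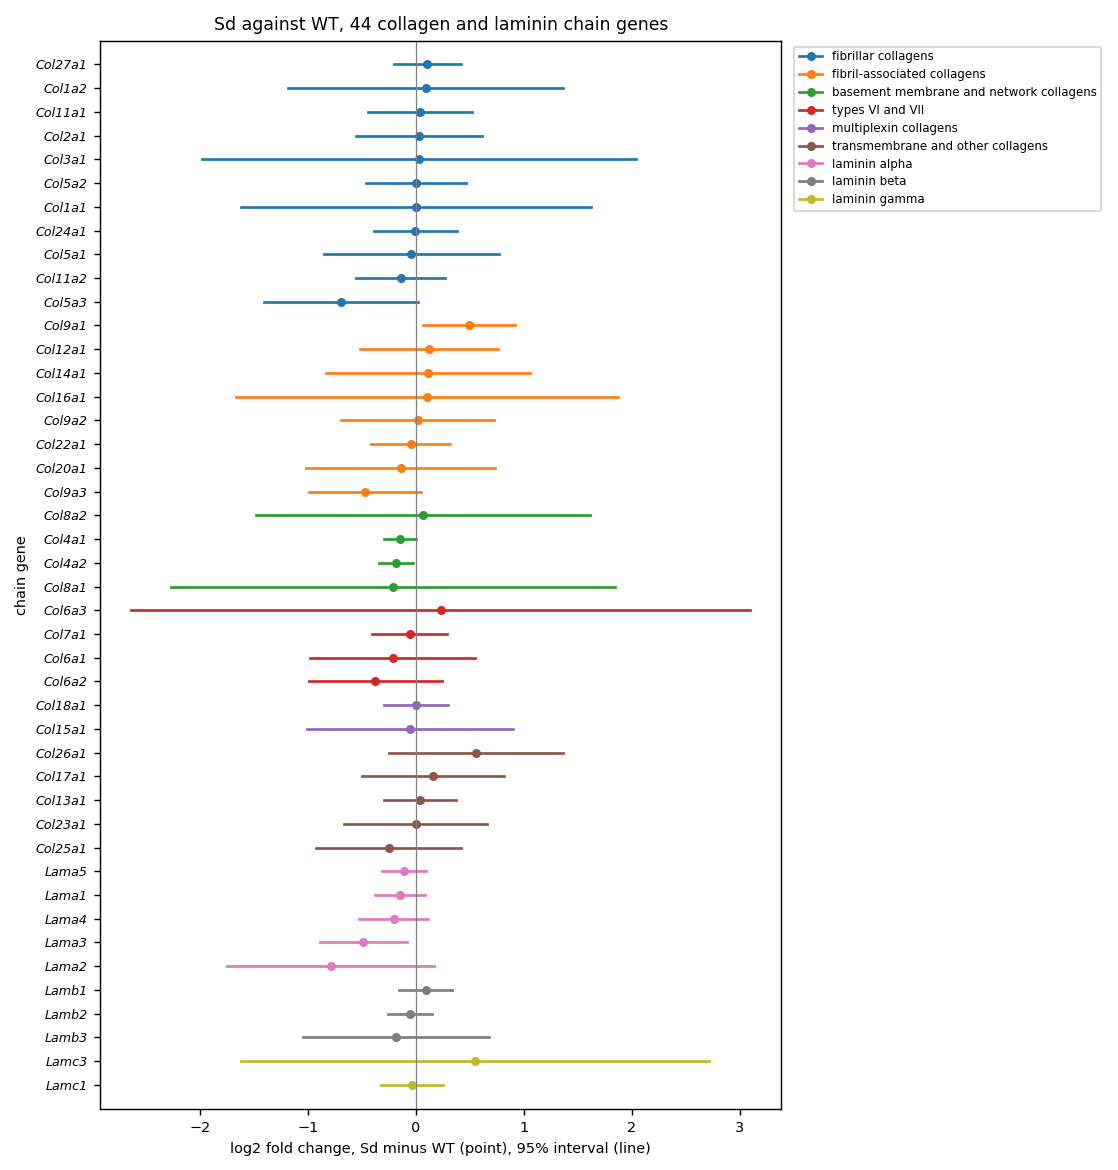
Log2 fold change of Sd minus WT for 44 tested chain genes, grouped and coloured by class, with the fitted value as a point and its 95% interval as a line (edgeR, 3 libraries a group). The intervals of the type IV collagens and abundant laminins are narrow, and those of Col1a1, Col3a1 and Col6a3 span more than 1 log2 unit on either side of 0.

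What set the members apart from each other was how much they varied between libraries of either genotype. Among members of at least 10 CPM in WT, 8 of 27 differed by 2-fold or more between their highest and lowest library, against 3.34% of the 9360 genes of that level. These were Col1a1, Col1a2, Col3a1, Col6a2, Col9a1, Col14a1, Col15a1 and Col26a1, and 0 of the 7 laminins of that level was among them. Without Sd replicate 2 the count was 5 of 27, against 2.44% of genes. The median fold between highest and lowest library was 2.06 over the 34 tested collagens, 1.44 over the 11 laminins and 1.35 over all genes tested. Low counts widen this fold, so the comparison holds best among abundant genes, where the median over all genes of at least 10 CPM was 1.22 and over such members 1.56.

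**Figure D2:**
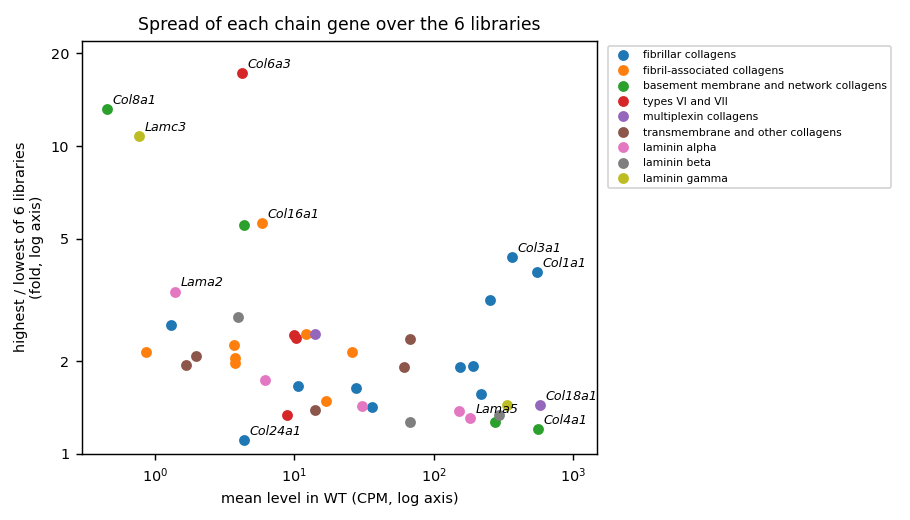
Fold between the highest and lowest of the 6 libraries (log axis) against mean WT level in CPM (log axis), 1 point for each of 44 tested chain genes, coloured by class. Among abundant genes, Col3a1 and Col1a1 lie at 4.36- and 3.89-fold while Col4a1 and Lama5 lie at 1.20- and 1.30-fold.

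Interstitial fibrillar collagens had the widest range among abundant chains. Col1a1, which encodes the main chain of type I collagen, stood at 540, 741 and 379 CPM in WT replicates 1 to 3 and at 251, 979 and 428 CPM in Sd replicates 1 to 3. The Sd libraries hold both the lowest and the highest value, and the groups overlap fully. The fitted log2 fold change of Col1a1 was -0.00 (-0.0013; SE 0.61, 95% interval -1.62 to 1.62), so that a 2-fold change in either direction lies inside the interval. Col1a2, its partner chain, stood at 242, 325 and 193 CPM in WT and 132, 417 and 259 CPM in Sd (log2 fold change 0.09, SE 0.48).

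Col3a1, the single chain of type III collagen, a partner of type I in loose connective tissue, measured 460, 464 and 169 CPM in WT and 160, 696 and 258 CPM in Sd. Its highest library exceeded its lowest 4.36-fold, and the log2 fold change was 0.03 (SE 0.75, 95% interval -1.98 to 2.04). Both extremes again came from Sd. The type V chains, which nucleate type I fibrils, were steadier. Col5a1 measured 216, 229 and 132 CPM in WT and 140, 255 and 166 CPM in Sd. Col5a2 measured 225, 255 and 174 CPM in WT and 191, 271 and 193 CPM in Sd, with a log2 fold change of 0.00 (0.0018; SE 0.19). In both type V chains WT replicate 3 was the lowest library and Sd replicate 2 the highest. Col5a3, a scarce chain of type V, had the only fibrillar levels without overlap, at 1.37, 1.46 and 1.11 CPM in WT and 0.558, 0.926 and 0.938 CPM in Sd (log2 fold change -0.69 with SE 0.32 and 95% interval -1.41 to 0.02 (0.0219), edgeR adjusted p = 1.00).

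The interstitial collagens shared their highest library, Sd replicate 2, but not their lowest. The lowest was Sd replicate 1 for Col1a1, Col1a2 and Col3a1, and WT replicate 3 for Col5a1 and Col5a2. Over all tested collagens and laminins, Sd replicate 2 was the highest library for 24 of 45 members, against 20.3% of all genes. Sd replicate 1 was the lowest for 21, against 19.7%. Both at once held for 11 members, against 4.84% of all genes. Summed over Col1a1, Col1a2 and Col3a1, levels were 1242, 1530 and 742 CPM in WT and 543, 2092 and 946 CPM in Sd. Genes of red blood cells moved in the same libraries. All 9 genes of an erythroid list drawn up after these values were seen (4 embryonic and adult globin genes, Klf1, Slc4a1, Epb42, Nfe2 and Gfi1b) were highest in Sd replicate 2 and lowest in Sd replicate 1. Their summed level was 4359, 9028 and 3727 CPM in WT and 1780, 10279 and 2878 CPM in Sd, and none of the 9 was at 0. Sclerotome markers shared the high library but not the low one. Their summed level was 270 to 377 CPM in WT and 438, 538 and 99.8 CPM in Sd replicates 1 to 3, with 10 of 12 genes highest in Sd replicate 2 and Pax1 at 0 in WT replicate 2 and Sd replicate 3. The 12 endothelial markers summed to 616 to 678 CPM in WT and 519, 510 and 716 CPM in Sd, and 0 of them were highest in Sd replicate 2. The part of these cell types in the collagen levels was not tested, and in bulk tissue fewer cells of a type and less RNA per cell cannot be told apart.

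**Figure D3:**
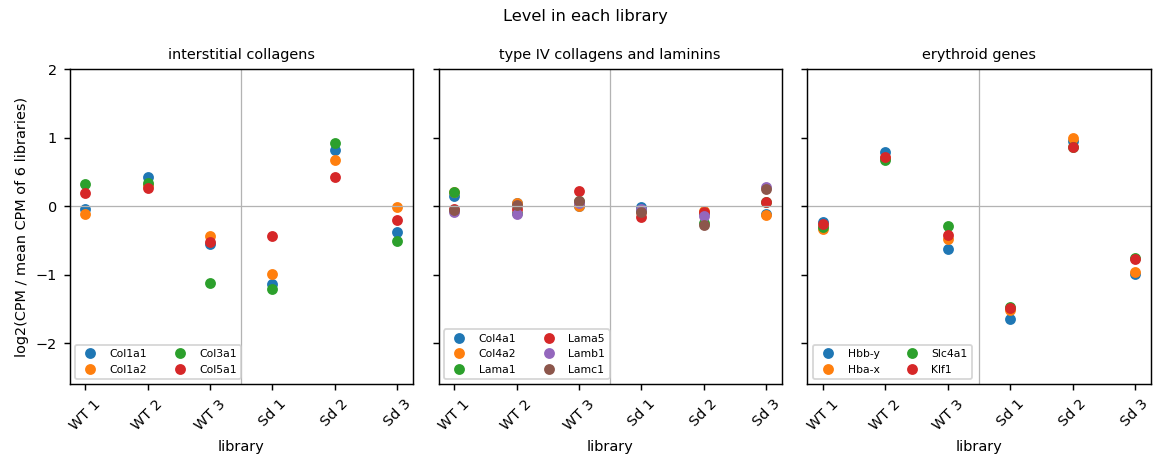
Level of each gene in each library relative to its mean over the 6 libraries (log2 scale), with libraries on the horizontal axis and a vertical line between WT and Sd. The interstitial collagens and erythroid genes are highest in Sd replicate 2, and all but Col5a1 are lowest in Sd replicate 1, while type IV collagens and laminins stay close to their mean.

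Col6a3, Col8a2 and Col16a1, low-level chains of connective tissue, had a wide range as well. Col6a3, the longest type VI chain, measured 5.78, 5.62 and 1.16 CPM in WT and 0.582, 10.1 and 4.06 CPM in Sd, a 17.3-fold span that covers both groups. Col16a1, a fibril-associated chain, spanned 5.61-fold and Col8a2, a network chain, 5.53-fold. Col6a1 and Col6a2, the neighbouring genes of the other main type VI chains on chromosome 10, spanned 2.43- and 2.37-fold. The ratio of Col6a1 to Col6a2 counts stayed between 0.953 and 1.00 in 5 libraries and was 1.25 in Sd replicate 2.

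The main chains of type IV collagen, the network of all basement membranes, were steady, and for Col4a1 and Col4a2 every Sd library lay slightly below every WT library. The scarce type IV chain Col4a3 spanned 9.67-fold, with overlap. Col4a1 measured 592, 552 and 531 CPM in WT and 528, 495 and 494 CPM in Sd, so that the gap between the nearest libraries is small. Its log2 fold change was -0.14 (SE 0.07, 95% interval -0.29 to 0.00 (0.0034), edgeR adjusted p = 1.00). Col4a2 measured 298, 267 and 259 CPM in WT and 245, 246 and 236 CPM in Sd (log2 fold change -0.18, SE 0.07, 95% interval -0.34 to -0.03, unadjusted p = 0.0257, edgeR adjusted p = 1.00). Neither passed the test, and among all genes 4.42% had Sd levels below WT without overlap. Endothelial markers, of cells that lie on a type IV sheet, were on the same side in Sd, with 12 of 12 log2 fold changes negative and a median of -0.19. By library the order differed. Sd replicate 3 was lowest for Col4a1 and Col4a2 but highest for the summed endothelial markers (716 CPM, against 616 to 678 CPM in WT). The part of endothelium in the type IV levels was not tested.

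Col4a1 and Col4a2 lie head to head on chromosome 8 and kept a constant ratio. Col4a1 counts were 1.99, 2.07 and 2.05 times those of Col4a2 in WT and 2.16, 2.01 and 2.10 times in Sd. The ratio spanned 1.09-fold over the 6 libraries and did not differ between groups beyond its spread (difference 0.04 on the log2 scale, exact permutation p = 0.4, 2-sided). In RefSeq on GRCm38.p6, Col4a1 starts at base 11312826 on the minus strand and Col4a2 at base 11312805 on the plus strand, so that the first 22 bases of their transcripts overlap. Those bases, chr8:11312805-11312826, are shown on the plus strand because both start sites of the pair lie at their ends, with the match to the GC box GGGCGG in capitals.
Col4a1 and Col4a2 shared start: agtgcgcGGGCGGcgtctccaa

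The abundant laminin chains were likewise steady, while the scarce Lamc3, Lama2 and Lamb3 spanned 10.8-, 3.36- and 2.79-fold over the 6 libraries. Lamc1, the gamma chain of most laminins, measured 323, 340 and 353 CPM in WT and 314, 277 and 399 CPM in Sd (log2 fold change -0.04, SE 0.12, 95% interval -0.32 to 0.25). Lamb1, its usual beta partner, measured 288, 282 and 315 CPM in WT and 296, 277 and 370 CPM in Sd (log2 fold change 0.09, SE 0.11). Sd replicate 3 was the highest and Sd replicate 2 the lowest library for both chains, whereas Sd replicate 2 was the highest for the interstitial collagens. The ratio of Lamb1 to Lamc1 counts was 0.889, 0.829 and 0.894 in WT and 0.944, 0.998 and 0.927 in Sd, higher in 3 of 3 Sd libraries. Its exact permutation p was 0.1, the smallest that 3 against 3 libraries can give, and 0.433 after Benjamini-Hochberg adjustment over the 13 ratios compared.

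The 5 laminin alpha chains, which carry the receptor-binding end, all had negative log2 fold changes, where 50.1% of all genes did, and none passed the test. Lama1, the alpha chain of the first embryonic basement membranes, measured 168, 135 and 153 CPM in WT and 139, 121 and 151 CPM in Sd (log2 fold change -0.15, SE 0.10, 95% interval -0.38 to 0.09). Its groups overlap, and each Sd library lay below the WT library of the same number. Lama5, which takes over from Lama1 as tissues mature, measured 171, 172 and 205 CPM in WT and 157, 167 and 184 CPM in Sd (log2 fold change -0.11, SE 0.09), also lower within each number; blocked on the number, neither passed (edgeR adjusted p = 1.00 for both). The ratio of Lama1 to Lama5 counts was 0.836 ± 0.124 in WT and 0.811 ± 0.0772 in Sd (SD, n = 3; exact permutation p = 0.8). Lama4, an alpha chain of blood vessels, measured 31.0, 33.7 and 26.7 CPM in WT and 23.7, 23.7 and 31.9 CPM in Sd.

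Lama3, the alpha chain of the laminin beneath stratified and glandular epithelia, had the smallest p of the members. It measured 5.73, 5.51 and 7.34 CPM in WT and 4.25, 4.38 and 4.63 CPM in Sd, without overlap (log2 fold change -0.49, SE 0.18, 95% interval -0.89 to -0.08, unadjusted p = 0.0241, edgeR adjusted p = 1.00). Lamb3, a beta chain of the same laminin, gave a log2 fold change of -0.18 (SE 0.38), with overlap. Hindgut endoderm markers had 13 of 13 negative log2 fold changes, and Shh and Ihh among them fell (edgeR adjusted p = 0.0438 for both). Neither passed with any 1 library left out, where the edgeR adjusted p was 0.0615 to 0.263 for Shh and 0.0933 to 0.317 for Ihh, with the log2 fold change negative throughout. With all 6 libraries kept, both passed with DESeq2 (adjusted p = 2.64e-11 for Shh and 7.73e-07 for Ihh). They also passed in the edgeR alternatives with all 6 libraries (adjusted p at most 0.0442 for Shh and 0.0451 for Ihh). The part of hindgut endoderm in the level of Lama3 was not tested. Surface ectoderm markers had 9 of 12 negative log2 fold changes and a median of -0.10, and 0 passed. Other laminins were Lama2, an alpha chain of muscle, at 1.40 ± 0.375 CPM in WT and 0.811 ± 0.451 CPM in Sd, Lamb2 at 67.8 ± 1.55 and 65.2 ± 7.70 CPM, and Lamc3 at 0.773 ± 0.517 and 1.12 ± 1.24 CPM (SD, n = 3 each). The scarce Lama2 had the log2 fold change largest in size among the tested members, with overlap (-0.79, SE 0.42, 95% interval -1.75 to 0.16, edgeR unadjusted p = 0.0939).

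Chains of cartilage and notochord sheath did not move together. Col2a1, the chain of type II collagen, measured 164, 152 and 148 CPM in WT and 144, 217 and 113 CPM in Sd (log2 fold change 0.03, SE 0.24, 95% interval -0.55 to 0.62). The Sd libraries lie on both sides of the WT libraries. Of its companions in the same fibrils, Col11a1 gave a log2 fold change of 0.04 (SE 0.21) and Col11a2 of -0.14 (SE 0.18), and the ratio of Col11a1 to Col2a1 counts was 0.180 ± 0.0161 in WT and 0.184 ± 0.0219 in Sd (SD, n = 3; exact permutation p = 0.9). Sclerotome markers, from the somite cells that form vertebral cartilage, had their lowest summed level in Sd replicate 3, where Col2a1 was also lowest. Neural tube markers did so too, summing to 229 to 288 CPM in WT and 288, 341 and 206 CPM in Sd replicates 1 to 3. Both sums, like Col2a1, were highest in Sd replicate 2. In Sd replicate 1 they parted from Col2a1. There Col2a1 (144 CPM) lay below every WT library, while sclerotome markers (438 CPM) lay above every WT library. Neural tube markers there (288 CPM) equalled the highest WT library. Summed notochord markers were lowest in Sd replicate 2 (992 CPM, against 1063 to 1258 CPM in WT). The part of any of these cell types in the level of Col2a1 was not tested.

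Type IX collagen coats type II fibrils and is built from the products of Col9a1, Col9a2 and Col9a3. The log2 fold changes of its chain genes were of unlike sign, and none passed the test. Col9a1 measured 28.0, 28.0 and 21.7 CPM in WT and 29.2, 46.4 and 33.4 CPM in Sd, the only member with Sd above WT without overlap (log2 fold change 0.49, SE 0.18, 95% interval 0.06 to 0.92, unadjusted p = 0.0295, edgeR adjusted p = 1.00). Among all genes 3.26% were higher in Sd without overlap. Col9a3 measured 3.87, 3.92 and 3.53 CPM in WT and 1.99, 3.15 and 3.02 CPM in Sd, lower without overlap (log2 fold change -0.47, SE 0.23, unadjusted p = 0.0715, edgeR adjusted p = 1.00). Col9a2 measured 4.23, 3.31 and 3.55 CPM in WT and 2.55, 5.73 and 2.90 CPM in Sd, with overlap (log2 fold change 0.02, SE 0.31).

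Col9a3 and Col9a1 were also compared within libraries. Since Col9a1 was higher and Col9a3 lower in Sd without overlap, their ratio had to separate the groups and gives no further support. Col9a3 counts were 0.138, 0.140 and 0.163 of those of Col9a1 in WT and 0.0681, 0.0678 and 0.0904 in Sd. The means were 0.147 ± 0.0137 and 0.0754 ± 0.0130 (SD, n = 3), a difference of -0.97 on the log2 scale, lower in 3 of 3 Sd libraries (exact permutation p = 0.1, adjusted p = 0.433 over 13 ratios). The ratio of Col9a1 to Col2a1 counts was 0.171, 0.184 and 0.146 in WT and 0.203, 0.214 and 0.294 in Sd, also without overlap (difference 0.49 on the log2 scale, exact permutation p = 0.1, adjusted p = 0.433). The permutation test cannot pass 0.05 with these numbers of libraries. Of the 13 ratios, the 3 described here for Lamb1, Col9a1 and Col9a3 separated the groups. Both type IX ratios use the same Col9a1 values and are not independent. The other 10 overlapped, with adjusted permutation p from 0.867 to 0.9.

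**Figure D4:**
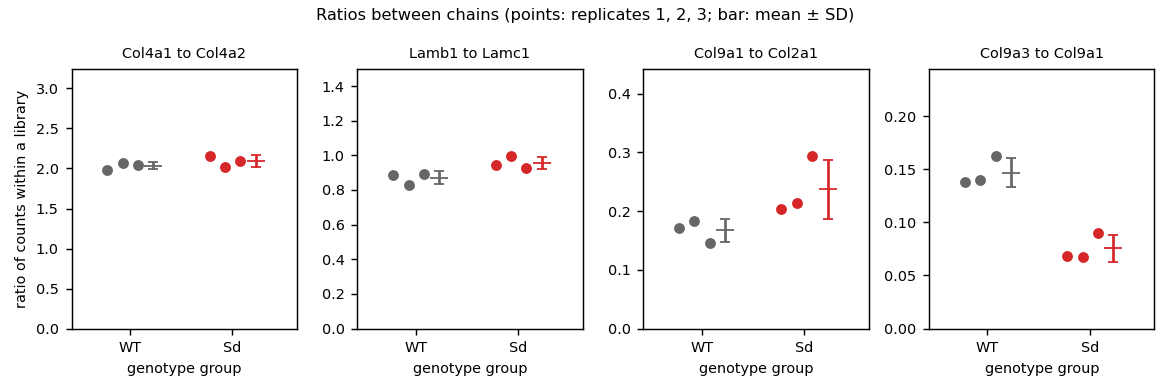
Ratio of counts of a pair of chain genes within each library, with WT in grey and Sd in red, points for replicates 1, 2 and 3 in turn and the mean ± SD beside them; each vertical axis starts at 0. Col4a1 to Col4a2 stays near 2 in every library, while Col9a3 to Col9a1 lies between 0.138 and 0.163 in WT and between 0.0678 and 0.0904 in Sd.

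Per length of annotated exon, Col1a1, Col18a1 and Col4a1 were the most abundant chain genes in WT. Their levels were 84.3 ± 27.6, 82.8 ± 6.01 and 74.8 ± 4.16 CPM per kilobase (SD, n = 3), and these 3 do not differ beyond the spread of Col1a1. Col4a2 followed at 41.5 ± 3.10, Lamc1 at 40.9 ± 1.77, Col3a1 at 37.1 ± 17.2 and Lamb1 at 29.7 ± 1.80 CPM per kilobase. Of these, Col4a2 and Lamc1 lie within 1 SD of each other, and Col4a2, Lamc1 and Lamb1 all lie within 1 SD of Col3a1. Col5a2, Col5a1 and Col1a2 came next at 22.7 ± 4.30, 22.7 ± 6.19 and 20.4 ± 5.38, overlapping in their SD. Exon length here joins all annotated transcripts of a gene in GENCODE M21 and can exceed the main transcript, so this order is approximate. Col18a1, the type XVIII chain that also yields endostatin, measured 619, 590 and 536 CPM in WT and 561, 697 and 484 CPM in Sd (log2 fold change -0.00 (-0.0014), SE 0.13, 95% interval -0.30 to 0.30). Col15a1, the other multiplexin, measured 19.3, 12.3 and 10.8 CPM in WT and 10.8, 21.2 and 8.67 CPM in Sd.

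Transmembrane and other collagens gave one wide contrast that did not pass. Col26a1, an early mesenchymal and gonadal collagen, measured 83.2, 62.2 and 57.1 CPM in WT and 101, 135 and 62.1 CPM in Sd, with overlap (log2 fold change 0.56, SE 0.32, 95% interval -0.25 to 1.36, edgeR adjusted p = 1.00). Col13a1, Col17a1, Col23a1 and Col25a1, which span the cell membrane, had log2 fold changes of 0.04, 0.16, -0.00 (-0.0022) and -0.25. The remaining members had log2 fold changes between -0.21 and 0.12: Col7a1 of anchoring fibrils, the network chain Col8a1, the fibril-associated Col12a1, Col14a1, Col20a1 and Col22a1, and the late fibrillar chains Col24a1 and Col27a1. Col24a1 was the steadiest member of all, between 4.19 and 4.64 CPM in the 6 libraries, a 1.11-fold span.

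Genes that work with these chains gave no call. Basement membrane proteins had 0 of 18 tested genes past the threshold in either direction, with 11 negative log2 fold changes and a median of -0.03. Nid2 encodes nidogen 2, a link between laminin and type IV collagen. It measured 268, 245 and 259 CPM in WT and 316, 312 and 298 CPM in Sd, above WT without overlap (log2 fold change 0.26, SE 0.06, edgeR unadjusted p = 0.00207, adjusted p = 0.820). Nid1, of the other nidogen, had a log2 fold change of -0.19 (SE 0.19), with overlap. Fras1, of the epithelial Fraser complex, had a log2 fold change of -0.24 (SE 0.11). Enzymes and chaperones of collagen synthesis and crosslinking had 0 of 31 past, with 23 negative and a median of -0.05; the smallest p belonged to Colgalt1 and Tll1, a collagen galactosyltransferase and a procollagen protease, at 0.11 (SE 0.07) and -0.43 (SE 0.27).

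Receptors of collagen and laminin had 0 of 19 past, with 14 negative and a median of -0.07. Itga3, a laminin receptor subunit of epithelia, measured 109, 124 and 110 CPM in WT and 97.6, 106 and 94.7 CPM in Sd, lower without overlap (log2 fold change -0.20, SE 0.08, unadjusted p = 0.0301, edgeR adjusted p = 1.00). Itgb4, the hemidesmosomal integrin chain that binds the Lama3 product, had a log2 fold change of -0.49 (SE 0.23), with overlap. Cartilage and sheath genes had 0 of 9 tested past, with 6 negative and a median of -0.08, led by Matn3 and Comp at -0.26 (SE 0.18) and -0.41 (SE 0.46). Notochord markers had 13 of 13 negative log2 fold changes with a median of -0.45, and 6 lay below WT without overlap, against 4.42% of all genes. Only 1, Shh, passed the threshold (5.38 ± 1.25 CPM in Sd against 15.1 ± 1.55 in WT, SD, n = 3, edgeR adjusted p = 0.0438). This is the call described above that was lost with any 1 library left out. Noto had the most negative log2 fold change of the list, at 1.36 ± 1.09 CPM in Sd against 9.24 ± 1.66 in WT (SD, n = 3). Its log2 fold change was -2.79 (SE 0.86, edgeR unadjusted p = 0.0210), and it did not pass. The notochord and hindgut lists share 5 genes, Shh, Foxa1, Foxa2, Krt8 and Krt18, so their counts are not independent.

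Promoter sequence was looked at for what the members share beyond their names. The RefSeq table on GRCm38.p6 held a window from 250 bases before to 50 after the start for 32 of the 47 members. Their median GC content was 60.2%, against 52.7% over all 32851 windows. The GC box GGGCGG was found on either strand in 21 of the 32, 65.6%, against 35.7% of all windows. The CCAAT box (CCAAT) was found in 12, 37.5%, against 37.4%, and the TATA box (TATAAA) in 4, 12.5%, against 13.6%. Each member entered with a single window, at the start farthest upstream. The 32851 windows were neither reduced to a single start per gene nor chosen by level, so the compared sets are unlike. The windows of Col4a1 and Col4a2 overlap and are not independent. No match of one motif overlaps another in the sequences printed here. The members ranged from 37.7% GC in Col3a1 to 75.0% in Col5a1, and all windows from 10.3% to 89.3%.

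Col3a1 and Lama5 are shown because the former varied widely and the latter little between libraries, and their 250 upstream bases hold no annotated exon, a choice made after their values were seen. Col3a1, at chr1:45311288-45311537 on the plus strand, has 35.2% GC, 1 TATAAA match and 0 matches of the others. Lama5, at chr2:180225860-180226109 on the minus strand, has 72.4% GC, 4 GC box matches and 0 of the others. Both run 5′ to 3′ up to the base before the start, with motif matches on either strand in capitals, and a match is a description of letters only.
Col3a1 upstream: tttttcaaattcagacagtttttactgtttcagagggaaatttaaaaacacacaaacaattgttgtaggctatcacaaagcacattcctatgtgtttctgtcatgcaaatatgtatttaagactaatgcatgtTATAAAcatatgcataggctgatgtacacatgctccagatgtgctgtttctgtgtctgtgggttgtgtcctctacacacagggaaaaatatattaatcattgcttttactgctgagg
Lama5 upstream: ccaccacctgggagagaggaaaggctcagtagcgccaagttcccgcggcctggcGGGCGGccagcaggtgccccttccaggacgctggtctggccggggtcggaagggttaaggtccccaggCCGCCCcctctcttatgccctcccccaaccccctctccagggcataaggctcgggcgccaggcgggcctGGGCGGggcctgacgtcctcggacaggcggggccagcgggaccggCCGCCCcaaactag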

How the data were processed

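Per the labels' protocols, tailbuds were cut before the last somite and stranded polyadenylated RNA libraries were made. The authors deposited raw counts per Ensembl gene, 1 file per library. The submitters' processing notes list build mm9 and the tools STAR 2.5.2b, SAMtools, DESeq2, CASAVA and bcl2fastq 2.17.1.14. Not given in the sources used here are the program that counted reads and its strand setting and annotation; where transcripts overlap, as at the starts of Col4a1 and Col4a2, reads may be split.

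Symbols were joined by Ensembl ID from a reference table of gene names, which matched 32620 of 37310 identifiers, and GENCODE M21 (GRCm38) supplied chromosomes and exon lengths. Unnamed identifiers held 0.622% of counts. After filterByExpr (minimum count 10, minimum total 15), 15471 genes were left and were tested with edgeR 4.0.16 in R 4.3.3 (TMM, robust quasi-likelihood, 2-sided, group only, threshold 0.05). Standard errors are the log2 fold change divided by the square root of F. The test was tried on simulated data first. Ratios between chains were taken within libraries from counts and compared by exact permutation.

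Of the tested members, 1 enters the counts and medians but is not reported here by name. Values in each library are given for Col2a1, Col9a1, Lama1, the 10 members highest per length in WT, members with an unadjusted p under 0.05 and those without overlap and a log2 fold change of at least 0.5 in size; from other lists, genes past the threshold or else the 2 smallest p. Other per-library values were added after seeing them. The members and lists were chosen with earlier results of these data known.

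Same-numbered libraries deviated together from their group means (correlations over 15471 genes 0.194, 0.144 and 0.275 for numbers 1 to 3), but WT replicate 1 and Sd replicate 2 did too (0.182), and no label states a pairing. A fit blocked on replicate number was an alternative, beside DESeq2 1.42.0, other size factors, no low-count filter and each library left out. No pair of libraries within a group agreed within sampling noise.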

Additional observations from a re-analysis of the deposited data

How the results depend on the processing

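No member passed the threshold under any of the 10 alternatives run, and the smallest adjusted p of a member was 0.610 (Col9a1). The numbers of all genes called were 9 with edgeR, 34 with DESeq2, 14 without the low-count filter, 9 with other size factors and 2 to 6 with 1 library left out. With the replicate block 12 genes were called, 8 higher and 4 lower, and the block changed no call of a member; paired over the replicate numbers, the ratio of Col9a3 to Col9a1 differed by -0.97 on the log2 scale (exact sign-flip p = 0.25, the smallest possible). Members without overlap between groups numbered 6 to 12 with 1 library left out, 11 without Sd replicate 2 and 12 without Sd replicate 3, while the share of all genes without overlap rose from 7.68% to between 13.5% and 22.7%. Members with a 2-fold range numbered 5 to 8 with 1 library left out, 5 without Sd replicate 2. The median log2 fold change of the members stayed between -0.27 and 0.05. The sign of the log2 fold change stayed in every fit for 15 of 45 members, among them Col4a1, Col4a2, Col9a1, Col9a3, Col5a3 and all 5 laminin alpha chains, and turned in some fit for 30, none of them called. With 1 library left out, the log2 fold changes of members that turned ranged as follows: Col8a1 -2.34 to 0.24, Col8a2 -0.74 to 0.48, Col12a1 -0.16 to 0.35, Col14a1 -0.38 to 0.35, Col16a1 -0.87 to 0.50, Col20a1 -0.35 to 0.22, Col22a1 -0.20 to 0.068, Col9a2 -0.44 to 0.23, Col11a1 -0.24 to 0.16, Col11a2 -0.24 to 0.010, Col1a1 -0.70 to 0.35, Col1a2 -0.37 to 0.42, Col24a1 -0.031 to 0.038, Col2a1 -0.27 to 0.22, Col3a1 -0.80 to 0.39, Col5a1 -0.33 to 0.13, Col5a2 -0.18 to 0.13, Lamb1 -0.043 to 0.18, Lamb2 -0.13 to 0.040, Lamb3 -0.58 to 0.12, Lamc1 -0.20 to 0.074, Lamc3 -0.94 to 1.09, Col15a1 -0.53 to 0.24, Col18a1 -0.15 to 0.11, Col13a1 -0.066 to 0.17, Col17a1 -0.052 to 0.28, Col23a1 -0.24 to 0.21, Col6a1 -0.59 to 0.048, Col6a3 -0.85 to 0.75, Col7a1 -0.16 to 0.034. Log2 differences of ratios that turned ranged likewise: Lama1 to Lama5 -0.12 to 0.080, Lama1 to Lamc1 -0.18 to 0.014, Lama5 to Lamc1 -0.16 to 0.028, Col6a1 to Col6a2 -0.015 to 0.17, Col3a1 to Col1a2 -0.39 to 0.17, Col11a1 to Col2a1 -0.068 to 0.10, Col15a1 to Col18a1 -0.34 to 0.10. With the replicate block the log2 fold changes that turned were Col8a2 -0.15, Col16a1 -0.11, Col9a2 -0.070, Col1a2 -0.021, Col2a1 -0.020, Col3a1 -0.082. Col1a1 and Col18a1, at 0 within their error, turned with DESeq2 (Col1a1 0.00012, Col18a1 0.00091), with other size factors (Col1a1 0.00045, Col18a1 0.00091) and without the low-count filter (Col1a1 0.00044, Col18a1 0.00059). The cause was not tested. No ratio of Col4a3 to Col4a4 was formed, since Col4a4 was under the count rule. Having 3 libraries a group limits the precision: for Col1a1 and Col3a1 the 95% intervals include 2-fold changes either way.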

Other observations

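Lum and Postn were among the genes that shared the library order of the summed interstitial collagens. The rule was chosen after the values were seen: at least 10 CPM in WT, a 2-fold range, and the same order of the 6 libraries as the summed level of Col1a1, Col1a2 and Col3a1. Over all 15471 genes tested, at any level and range, 82 had the order. Of 313 genes with that level and range, 11 had the order (3.51%): Col1a1 and Col3a1, which enter the sum, and Lum, Postn, Ccn4, Creb3l1, Mab21l2, Itgb3, Gypc, Fgfr3 and Tinagl1. They belong to no 1 list, and Col1a2 itself differed in the order of WT replicate 1 and Sd replicate 3. Lum, which encodes the collagen-binding proteoglycan lumican, measured 15.8, 28.9 and 3.48 CPM in the WT libraries and 0.631, 60.4 and 14.2 CPM in Sd, a 95.8-fold span. Postn, which encodes periostin, a matrix protein that binds type I collagen, measured 183, 286 and 81.7 CPM in the WT libraries and 44.9, 439 and 173 CPM in Sd. Creb3l1, a transcription factor gene known to drive collagen secretion, measured 17.0, 26.4 and 10.1 CPM in the WT libraries and 5.85, 26.9 and 13.6 CPM in Sd. Both groups hold high and low libraries for each of them.

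Of the connective tissue list, Pdgfra, Osr1, Tcf21, Wt1 and Dcn did not show that order. Dcn departed from it only in the order of WT replicates 1 and 2, and spanned 34.3-fold from Sd replicate 1 to Sd replicate 2. Upk3b had the order, at 7.17, 12.7 and 2.94 CPM in WT and 2.38, 16.05 and 5.79 CPM in Sd, but lay under 10 CPM in WT. Pdgfra stood at 198 ± 10.4 CPM in WT against 197 ± 35.3 CPM in Sd, and Osr1 26.8 ± 2.45 and 26.0 ± 3.32 CPM (SD, n = 3 each). Among the globin genes, Hbb-y measured 1395, 2826 and 1060 CPM in the WT libraries and 520, 3159 and 818 CPM in Sd, without a call between groups (log2 fold change -0.23, edgeR unadjusted p = 0.803).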
